A study of Mus musculus with 8 samples.

Results

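The genes described here are 34 genes of neural progenitors, radial glia and astrocytes, chosen by name for their known roles, out of 18301 genes in a table of ribosome footprints and total RNA from mouse neuronal cultures. For the comparison of early with late glial genes, 23 of them were taken as early (progenitor transcription factors, the Notch pathway, radial glia structure and matrix, and the factors that give progenitors glial competence). The other 11 were taken as late (astrocyte filament, enzymes, transporters, channels and secreted proteins). A value was found for 32 genes; the transcription factor genes Sox1 and Sox2 were not analysed here. Neurog2, a proneural transcription factor, held 2 to 36 counts in a library and was too low to test, which left 31 genes in the tests, 20 early and 11 late.

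The cultures were neurons at day 8 in vitro, labelled cortical and glutamatergic, differentiated from CGR8 mouse embryonic stem cells and kept in Neurobasal-A medium with B27. There were 4 groups of 2 libraries each: footprints of wildtype (WT) cells, footprints of cells labelled Eif4g1/Eif4g3 double-knockout (DKO), total RNA of WT cells and total RNA of DKO cells. Eif4g1 and Eif4g3 encode scaffolds of the translation initiation complex. The labels give cycloheximide at 100 µg/ml for 5 minutes for all 8 libraries, so treated and untreated cells were not compared. The library descriptions carry a culture code, which the footprint and RNA libraries of 3 cultures share, but for DKO replicate 2 the spellings differ between footprints and RNA, which leaves it uncertain that these libraries share a culture. The code of WT replicate 2 reads WT, while that of WT replicate 1 is a letter with numbers, as are those of the DKO cultures. The 2 WT cultures are thus coded differently. No source used here says whether a code marks 1 clone or whether the libraries come from separate differentiations. The p-values below therefore measure only the spread between these libraries, which may be technical.

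Radial glia are the stem cells of the developing cortex. They express the intermediate filament proteins nestin and vimentin and the lipid-binding protein FABP7, and Notch signalling through the HES repressors keeps them undifferentiated. They make neurons first and later, under the control of SOX9, NFIA and NFIB and of cytokine and BMP signals, turn to making astrocytes, which then acquire GFAP, glutamate transporters, the water channel AQP4, gap junctions and secreted lipoproteins. A culture of stem cell-derived neurons can hold residual progenitors and the first astrocytes, and the 34 genes report on both.

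Ribosome footprints are the mRNA fragments that ribosomes protect. Levels below are in CPM, the counts of a gene scaled to a common library size that was fitted by the TMM method, and are given in the order WT replicate 1, WT replicate 2, DKO replicate 1 and DKO replicate 2. The 32 genes took 0.704% to 0.952% of the counts of a footprint library and 0.520% to 0.708% of an RNA library. Library totals ran from 10490535 to 19753419 estimated counts in footprints and from 14762047 to 44786643 in RNA. The first principal component over all tested genes held 58.8% of the variance in either assay, and it placed WT replicate 2 at 30.6 in footprints and 25.8 in RNA, with the other 3 cultures between -12.8 and -5.57. The general neuronal genes Tubb3, Map2 and Snap25 stood at 407 to 2798 CPM in every library. Slc17a6, a vesicular glutamate transporter, stood at 166, 74.3, 234 and 194 CPM in footprints and 166, 78.0, 224 and 180 CPM in RNA. It was lowest in WT replicate 2, and both DKO libraries lay above both WT libraries in either assay. Its log2 fold changes (DKO over WT) of 0.83 ± 0.55 (SE) and 0.73 ± 0.54 were not called. The cortical glutamatergic markers Slc17a7 and Tbr1 stood at 0.218 CPM or less and at 0.0563 to 1.04 CPM, so that these defining markers of the labelled cell type were near 0. Eif4g1 was at 154 CPM in footprints and 125 CPM in RNA of DKO replicate 1 and at 263 to 305 CPM in the other 6 libraries. Eif4g3 was at 153 to 172 CPM in footprints and 103 to 139 CPM in RNA, so that neither gene was below the WT cultures in DKO replicate 2. A sum over the whole gene does not check a deletion of part of it, and DKO below means the genotype the labels give.

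**Figure D1:**
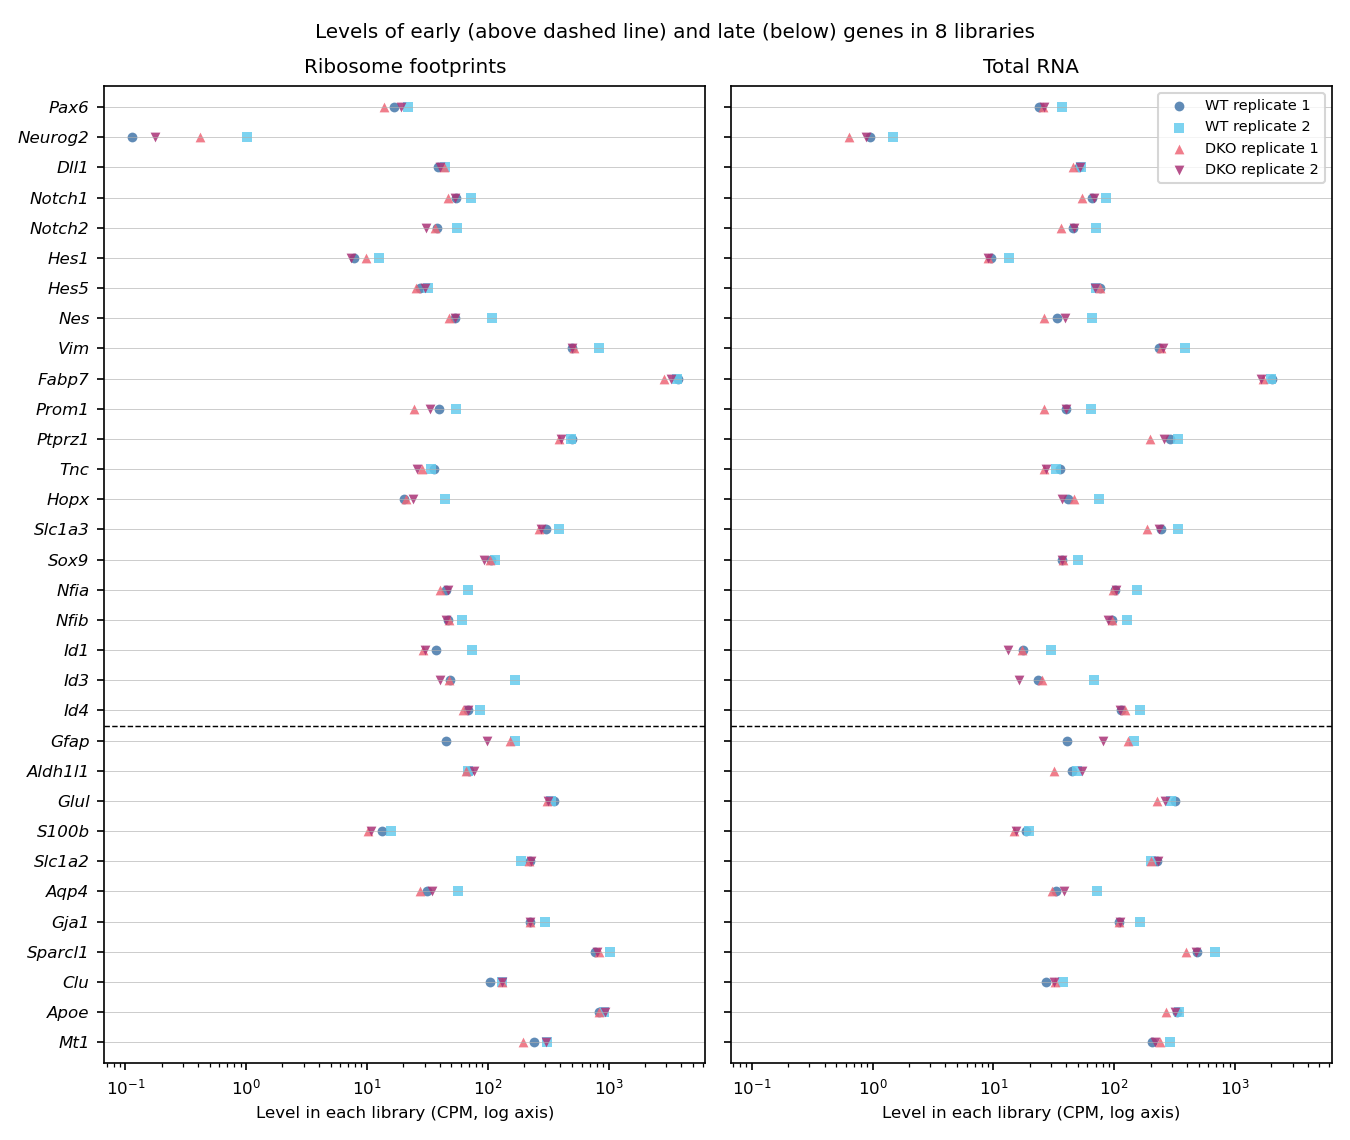
Level of each gene in each library in CPM on a log axis, footprints on the left and total RNA on the right; circles and squares are the WT cultures and triangles the DKO cultures, with 1 point a library. WT replicate 2 (light squares) lies to the right of the other 3 cultures for 23 of 31 tested genes in footprints and 25 of 31 in RNA, and Fabp7 lies farthest to the right in both panels.

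The first comparison was DKO against WT. Early genes leaned lower in the libraries labelled DKO in both assays, but 0 of 31 genes passed the test and the lean rests largely on WT replicate 2, without which the early medians were -0.098 in footprints and -0.089 in RNA. In RNA the log2 fold change (DKO over WT) was negative for 20 of 20 early genes (19 of 20 with RLE scaling, which turned Hes5) and 9 of 11 late genes, where 50.4% of all 12898 tested genes were negative. In footprints it was negative for 19 of 20 early and 6 of 11 late genes, where 49.2% of all genes were. With all libraries the median log2 fold change was -0.34 in footprints and -0.36 in RNA for early genes, and -0.14 and -0.20 for late genes, against 0.0028 and -0.0015 for all genes. In these bulk cultures, fewer cells of a type and less RNA per cell cannot be told apart.

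Of the 31 genes, 0 were called in footprints at an adjusted p under 0.05 (edgeR quasi-likelihood test, Benjamini-Hochberg adjustment over all tested genes), where 0.00775% of all genes were called, and the smallest adjusted p among them was 0.836. In RNA 0 were called, where 0.0155% of all genes were, with a smallest adjusted p of 0.851. An unadjusted p under 0.05 was found for 4 of the 31 in footprints and 5 in RNA, where 5.62% and 5.57% of all genes had one. DESeq2 also called 0 in each assay and gave an unadjusted p under 0.05 to 9 and 8 of them. The share of all genes with such a p in DESeq2 is not given here, so these 2 counts are not read as a result about the set. Both DKO libraries lay below both WT libraries for 12 of 20 early and 2 of 11 late genes in footprints, where 16.2% of all genes did so. The same held for 7 early and 4 late genes in RNA, where 18.9% of all genes did so. Neither assay had a gene of the 31 with both DKO libraries above both WT libraries, which 16.3% and 19.6% of all genes had. In both assays at once, 8 genes lay lower in this way, namely Fabp7, Prom1, Ptprz1, Tnc, Slc1a3, Id1, Glul and S100b, where 6.69% of all genes did.

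**Figure D2:**
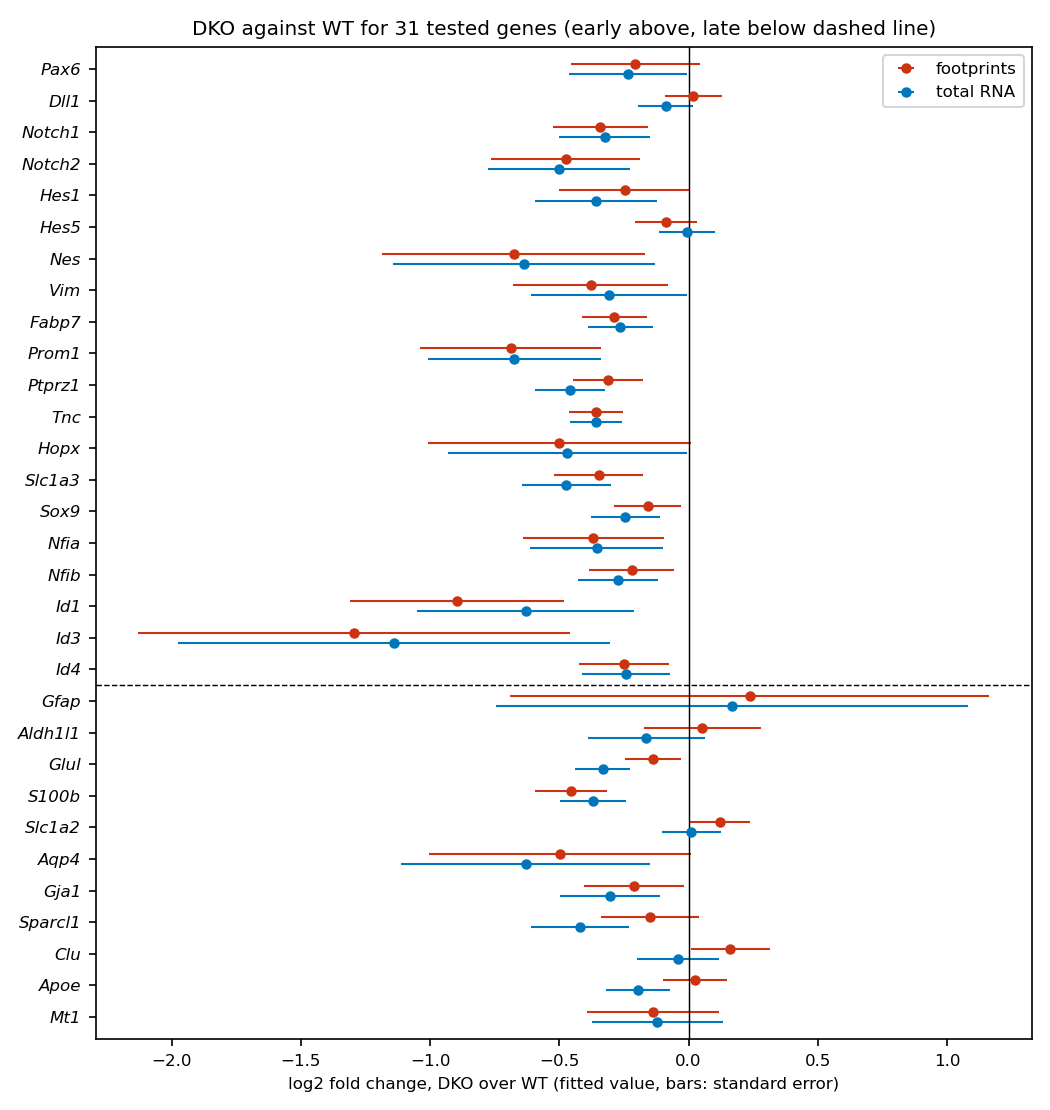
Fitted log2 fold change of DKO over WT for the 31 tested genes, footprints in red and total RNA in blue, with the standard error as bars; early genes stand above the dashed line and late genes below it. All 20 early genes lie left of 0 in RNA (Hes5 lies right of 0 with RLE scaling) and 19 of them in footprints, and bars are widest for Id3 and Gfap, whose replicates differed most.

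Of the transcription factors that define neural progenitors, Pax6 held 31.6 to 45.5 TPM in RNA (transcript counts divided by length and scaled to a common total) and Neurog2 0.572 to 1.28 TPM. Pax6, a homeodomain factor of cortical radial glia, stood at 16.8, 22.1, 13.8 and 19.3 CPM in footprints and at 23.8, 37.1, 25.8 and 26.4 CPM in RNA. WT replicate 2 was the highest of the 4 cultures in both assays, and the groups overlapped in both. Its log2 fold change was -0.21 ± 0.25 (SE) in footprints and -0.23 ± 0.23 in RNA. Neurog2, which drives progenitors towards neurons, had 0.113, 1.02, 0.416 and 0.177 CPM in footprints and 0.959, 1.48, 0.635 and 0.877 CPM in RNA, the highest again in WT replicate 2.

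The 5 Notch pathway genes among the 34 were Dll1, a ligand carried by differentiating neighbours, the receptors Notch1 and Notch2, and the target repressors Hes1 and Hes5. Notch1 stood at 54.8, 72.7, 46.9 and 53.2 CPM in footprints and 65.95, 86.2, 54.4 and 67.8 CPM in RNA, which gave log2 fold changes of -0.34 ± 0.18 and -0.32 ± 0.18. Its footprints in DKO lay below those of WT, but its RNA in DKO replicate 2 was above that of WT replicate 1. Notch2 stood at 38.3, 55.4, 36.5 and 30.9 CPM in footprints and at 45.2, 71.2, 36.6 and 46.5 CPM in RNA, WT replicate 2 being the highest in both. Hes1 stood at 7.89, 12.6, 9.89 and 7.45 CPM in footprints and 9.59, 13.3, 8.99 and 8.999 CPM in RNA, WT replicate 2 again the highest in both. Dll1 differed little between cultures: it stood at 38.6, 44.3, 43.4 and 40.5 CPM in footprints and 50.7, 52.8, 45.2 and 52.5 CPM in RNA, a ratio of 1.15 and 1.17 between the highest and the lowest library.

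Hes5 held the most RNA per transcript length of the 5, at 111 to 127 TPM in the 4 RNA libraries. It stood at 27.5, 32.05, 25.6 and 30.03 CPM in footprints and at 75.8, 70.6, 76.5 and 68.96 CPM in RNA, so that its RNA differed by a ratio of 1.11 between the highest and the lowest culture. Its log2 fold change was -0.086 ± 0.12 in footprints and -0.0054 ± 0.11 in RNA. The RNA value changed sign with RLE scaling, with DESeq2 and with protein-coding isoforms alone. Hes5 was the only one of the 20 early genes that was not highest in a WT culture in RNA. Its promoter window is shown because HES5 is the classic target of the Notch effector RBPJ. It spans 300 bases around the start site on the plus strand (GRCm38.p6, chr4:154960673-154960972, from RefSeq). Capitals mark TGGGAA, the core that RBPJ binds, or its reverse complement, of which it holds 2.
Hes5 promoter: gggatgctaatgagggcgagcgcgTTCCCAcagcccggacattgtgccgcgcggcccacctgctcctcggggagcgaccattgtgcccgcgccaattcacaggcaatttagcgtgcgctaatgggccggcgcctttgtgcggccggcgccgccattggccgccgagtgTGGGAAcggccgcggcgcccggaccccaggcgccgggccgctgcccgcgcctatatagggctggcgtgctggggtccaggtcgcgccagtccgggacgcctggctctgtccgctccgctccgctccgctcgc
TGGGAA was searched on both strands and was found in 11 of the 34 windows that the 27 genes of the set with an entry have, against 25.6% of all 32851 windows of that length. These windows belong to 10 genes, Sox1, Hes5, Fabp7, Prom1, Tnc, Id4, Gfap, Aldh1l1, S100b and Apoe. A match is a run of letters in a window and not a measured binding site.

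Structural and surface genes of radial glia carried most of the counts of the early group, and all 8 had negative log2 fold changes in both assays. Fabp7, the brain lipid-binding protein of radial glia, was the most abundant gene of the set. It stood at 3769, 3708, 2868 and 3259.9 CPM in footprints and 2010.5, 1996, 1694 and 1643 CPM in RNA, and per transcript length at 4004 to 4827 TPM in RNA, where Mt1 came next with 725 to 1019 TPM. Both DKO libraries lay below both WT libraries in both assays, with log2 fold changes of -0.29 ± 0.13 in footprints (adjusted p = 0.849, edgeR) and -0.26 ± 0.13 in RNA (adjusted p = 0.851, edgeR). Fabp7 made up 57.4% to 65.4% of the summed CPM of the early genes in footprints and 47.4% to 56.0% in RNA, so that a sum over early genes is mostly this gene. Its promoter window (plus strand, GRCm38.p6, chr10:57784673-57784972, from RefSeq) is shown as that of the most abundant member. Capitals mark its 1 match to TGGGAA, which lies on the minus strand.
Fabp7 promoter: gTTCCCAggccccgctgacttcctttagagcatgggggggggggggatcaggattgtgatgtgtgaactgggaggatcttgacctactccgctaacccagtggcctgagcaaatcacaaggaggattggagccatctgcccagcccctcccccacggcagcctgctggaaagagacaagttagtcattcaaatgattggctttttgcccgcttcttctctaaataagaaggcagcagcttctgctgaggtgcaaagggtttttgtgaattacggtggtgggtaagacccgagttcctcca

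Tnc, a matrix glycoprotein of the stem cell niche, had the smallest unadjusted p of the 31 genes in both assays. It stood at 36.00, 34.01, 28.7 and 26.1 CPM in footprints and 35.6, 33.03, 26.1 and 27.4 CPM in RNA, with WT replicate 1 the highest. The groups did not overlap, the log2 fold change was -0.36 ± 0.11 in footprints and -0.36 ± 0.10 in RNA, and the adjusted p was 0.836 and 0.851 (edgeR). Ptprz1, a receptor-type phosphatase of outer radial glia, stood at 502, 486, 388 and 407 CPM in footprints and 292, 335, 196 and 259.9 CPM in RNA. Its log2 fold change was -0.31 ± 0.14 in footprints and -0.46 ± 0.14 in RNA, and in neither assay did the groups overlap. Prom1, the apical membrane protein prominin, stood at 39.8, 54.2, 24.4 and 33.2 CPM in footprints and at 40.1, 63.8, 26.2 and 40.1 CPM in RNA. In RNA its WT replicate 1 and DKO replicate 2 were almost level, so that the separation of the groups rests on a difference far smaller than that between the replicates. Slc1a3, the glial glutamate transporter GLAST, stood at 306, 386, 266 and 278 CPM in footprints and 246, 336, 187 and 233 CPM in RNA, with log2 fold changes of -0.35 ± 0.17 and -0.47 ± 0.17.

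The filament genes were highest in WT replicate 2 rather than in WT as a group. Nes, which encodes nestin, stood at 54.1, 109, 47.6 and 53.96 CPM in footprints and 33.9, 64.9, 26.1 and 38.98 CPM in RNA. WT replicate 2 exceeded the mean of the other 3 cultures by 2.11 times in footprints and 1.97 times in RNA, while WT replicate 1 lay near the DKO cultures. Vim, which encodes vimentin, was likewise highest in WT replicate 2, at 495, 831, 521 and 499 CPM in footprints and 233, 382, 243 and 254 CPM in RNA. For Hopx, a homeodomain-only protein of outer radial glia, the values were 20.2, 44.6, 20.9 and 24.2 CPM in footprints and 41.5, 74.5, 46.6 and 37.3 CPM in RNA, with 3 cultures close together and WT replicate 2 at 2.05 and 1.78 times their mean. The log2 fold changes of these 3 genes ran from -0.68 to -0.31, with standard errors of 0.30 to 0.51.

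All 6 factors of glial competence and of the Id family had negative log2 fold changes in both assays, and WT replicate 2 was the highest culture for all 6 in both. Sox9, which starts gliogenesis, stood at 106, 114, 105 and 92.5 CPM in footprints and 37.2, 50.3, 37.5 and 36.6 CPM in RNA. Nfia, a nuclear factor I protein that opens astrocyte genes, stood at 44.8, 68.4, 40.4 and 46.8 CPM in footprints and 101, 155, 97.4 and 103 CPM in RNA. Nfib, its relative, stood at 46.6, 61.8, 47.8 and 45.3 CPM in footprints and 95.3, 128, 95.8 and 89.4 CPM in RNA. In RNA of Sox9, Nfia and Nfib, WT replicate 1 lay between the 2 DKO values, and the log2 fold changes were -0.24 ± 0.13, -0.36 ± 0.26 and -0.27 ± 0.16.

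The Id proteins are helix-loop-helix proteins without a DNA-binding domain that block proneural factors and are induced by BMP signals. Id4 had the most RNA per length of the 3, at 56.4 to 81.3 TPM. It stood at 69.1, 86.9, 62.4 and 68.4 CPM in footprints and 113, 162, 122 and 111 CPM in RNA. Id1 stood at 37.4, 73.5, 29.1 and 30.1 CPM in footprints and 17.6, 29.8, 17.3 and 13.1 CPM in RNA, with both DKO libraries below both WT libraries in each assay. The change was -0.89 ± 0.41 on the log2 scale in footprints (adjusted p = 0.849, edgeR) and -0.63 ± 0.42 in RNA (adjusted p = 0.877, edgeR), and its 2 WT libraries differed by a ratio of 1.97 in footprints. Id3 had the highest ratio of the highest to the lowest library among the 20 tested early genes in both assays (4.14 and 4.201), at 48.8, 167, 47.6 and 40.4 CPM in footprints and 23.5, 68.5, 25.2 and 16.3 CPM in RNA. Only WT replicate 2 was high: it stood at 3.66 times the mean of the other 3 cultures in footprints and 3.16 times in RNA, and the log2 fold changes of Id3 were -1.29 ± 0.83 and -1.14 ± 0.84.

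Among late genes, Gfap, the astrocyte filament, overlapped between the genotypes. It stood at 45.4, 168, 152 and 99.3 CPM in footprints and 40.8, 145, 129 and 80.3 CPM in RNA. The order was the same in both assays, WT replicate 1 lowest, then DKO replicate 2, DKO replicate 1 and WT replicate 2, and the highest library exceeded the lowest by 3.70 times in footprints and 3.56 times in RNA. The log2 fold change was 0.24 ± 0.93 in footprints and 0.17 ± 0.91 in RNA. Its promoter window (minus strand, GRCm38.p6, chr11:102897151-102897450, from RefSeq) is shown because STAT signalling to Gfap is the textbook switch of astrocyte differentiation, although the well-known STAT site lies further upstream than this window. Capitals mark TTCNNNGAA, the letters STAT factors bind, and TGGGAA, 1 match each on either strand.
Gfap promoter: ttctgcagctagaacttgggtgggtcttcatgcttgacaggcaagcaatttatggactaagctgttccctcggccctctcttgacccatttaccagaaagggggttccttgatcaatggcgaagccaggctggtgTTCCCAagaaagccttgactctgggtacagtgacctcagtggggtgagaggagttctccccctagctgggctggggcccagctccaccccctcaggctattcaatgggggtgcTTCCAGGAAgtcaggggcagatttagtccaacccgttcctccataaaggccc
TTCNNNGAA, searched on both strands, was found in 2 of the 34 windows, those of Gfap and Slc1a3, against 8.30% of all windows.

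The enzymes and the calcium-binding protein of astrocytes differed among themselves. Glul, the glutamine synthetase that recycles glutamate, stood at 355, 334, 309 and 318 CPM in footprints and 319, 295, 226 and 262 CPM in RNA, the groups not overlapping in either. Its log2 fold change was -0.14 ± 0.11 in footprints and -0.33 ± 0.11 in RNA (adjusted p = 0.851, edgeR). S100b, a calcium-binding protein of astrocytes, stood at 13.3, 15.7, 10.3 and 10.8 CPM in footprints and 18.7, 19.9, 14.7 and 15.3 CPM in RNA. Its log2 fold changes of -0.45 ± 0.14 and -0.37 ± 0.13 had the smallest unadjusted p of the late genes in footprints and the second smallest in RNA, and the groups did not overlap in either assay. Oligodendrocyte lineage cells also express S100b. The 13 tested genes of that lineage's list summed to 1081 and 1304 CPM in WT and 867 and 926 CPM in DKO footprints. The part of that lineage in the value of S100b, or of any other gene of the set, was not tested. Aldh1l1, the folate enzyme used as a pan-astrocyte marker, stood at 69.6, 68.3, 65.8 and 76.9 CPM in footprints and 44.99, 49.6, 31.9 and 53.8 CPM in RNA, DKO replicate 2 being the highest in both.

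The transporter, channel and junction genes overlapped between the groups in both assays. Slc1a2, the main astrocyte glutamate transporter GLT-1, stood at 223, 187, 221 and 226 CPM in footprints and 224, 201, 199.8 and 229 CPM in RNA, which is a ratio of 1.21 and 1.15 between the highest and lowest library. Aqp4, the water channel of astrocyte endfeet, stood at 31.6, 57.1, 27.6 and 34.5 CPM in footprints and 33.1, 71.7, 30.4 and 38.4 CPM in RNA, with WT replicate 2 at 1.83 and 2.11 times the mean of the other 3. Gja1, the gap junction protein connexin 43, stood at 223, 296, 223 and 226 CPM in footprints and 109, 164, 109.7 and 112 CPM in RNA. For Aqp4 and Gja1 WT replicate 2 was high and WT replicate 1 lay within or next to the DKO values.

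Among the late genes, Mt1, Apoe and Sparcl1 of the secreted and metal-binding group had the most RNA per length. Sparcl1, the synaptogenic matrix protein hevin, stood at 775, 1035, 835 and 799 CPM in footprints and 482, 680.1, 391 and 479 CPM in RNA. Its log2 fold change was -0.15 ± 0.19 in footprints and -0.42 ± 0.19 in RNA, where both DKO libraries lay below both WT libraries. Apoe, the lipid carrier of astrocytes, stood at 828, 919, 834 and 944 CPM in footprints and 329, 345, 269.9 and 318 CPM in RNA. In footprints it was highest in DKO replicate 2, and in RNA both DKO libraries lay below both WT libraries. Clu, the chaperone-like apolipoprotein clusterin, stood at 104, 132, 131 and 133 CPM in footprints and 27.2, 37.9, 32.1 and 31.6 CPM in RNA, with WT replicate 1 the lowest in both. Mt1, a zinc-binding metallothionein, stood at 241, 312, 196 and 305 CPM in footprints and 206, 289.8, 239 and 217 CPM in RNA.

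The 4 cultures were then compared gene by gene. WT replicate 2 was the highest of the 4 cultures for 17 of 20 early and 6 of 11 late genes in footprints, where it was highest for 28.7% of all genes. In RNA it was highest for 17 early and 8 late genes, where it was highest for 32.5% of all genes. On the log2 scale its early genes lay 0.35 above their mean over the 4 cultures in footprints and 0.41 in RNA (medians), and its late genes 0.27 and 0.25. In WT replicate 1 the early medians were -0.069 and -0.083, against -0.20 and -0.16 in DKO replicate 1 and -0.13 and -0.11 in DKO replicate 2. The highest culture was the same in footprints and RNA for 27 of 31 genes, where 42.1% of all genes had this, and footprints and RNA come from shared cultures, with the match uncertain for DKO replicate 2.

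**Figure D3:**
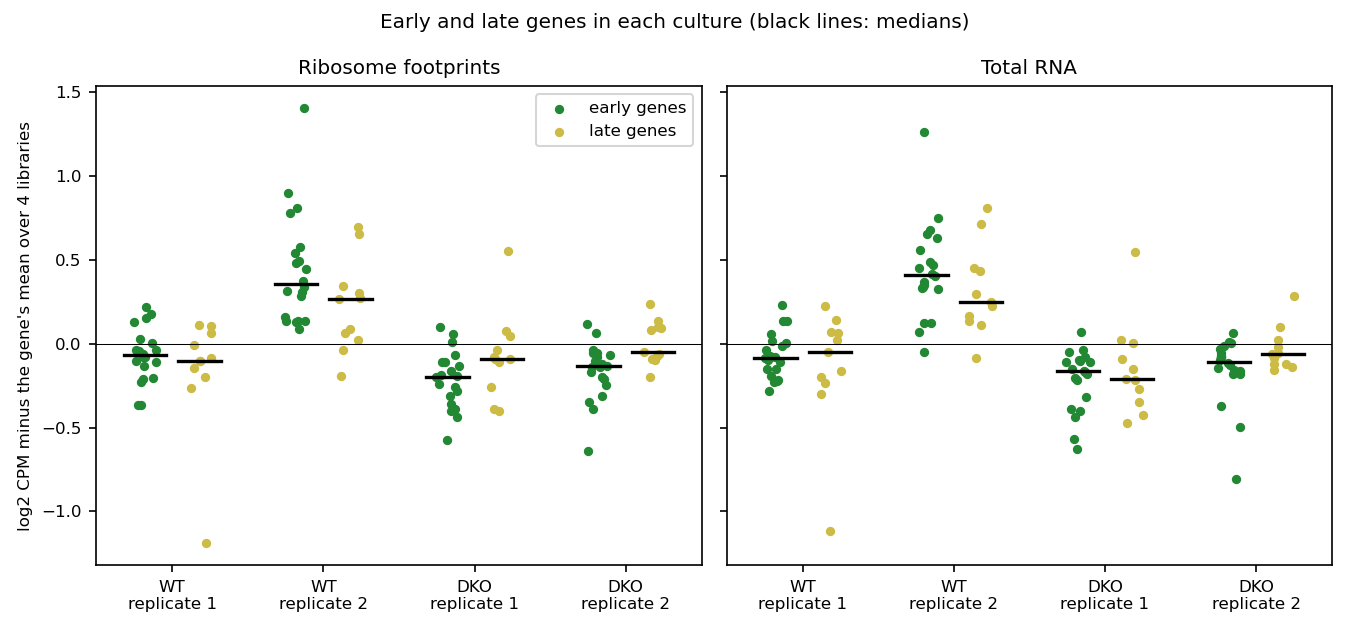
Log2 CPM of each tested gene minus its mean over the 4 libraries of the assay, for each culture, with early genes in green, late genes in yellow and medians as black lines. WT replicate 2 stands above 0 for 20 of 20 early genes in footprints and 19 of 20 in RNA, and the isolated low point in WT replicate 1 is Gfap.

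Leaving out both libraries of 1 WT culture changed the picture in opposite directions. Without WT replicate 2, the early median was -0.098 in footprints and -0.089 in RNA, the late median was 0.038 and -0.066, and 0 genes were called. Without WT replicate 1, the early median was -0.52 in footprints and -0.56 in RNA and the late median -0.29 and -0.34. In that setting 7 of 32 tested genes were called lower in footprints, where 2.45% of all genes were called lower (3.93% in either direction). They were Notch2 (log2 fold change -0.71), Vim (-0.69), Hopx (-0.95), Nfia (-0.63), Id1 (-1.29), Id3 (-1.92) and Aqp4 (-0.85). In RNA 12 were called lower, where 2.63% of all genes were (3.58% in either direction), namely the same 7 and Slc1a3 (-0.67), Nfib (-0.46), Id4 (-0.47), Gja1 (-0.56) and Sparcl1 (-0.64). These calls set 1 WT library against 2 DKO libraries in each assay, and the lone WT library is assumed to vary as the other groups do.

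Genes of other cell types moved with WT replicate 2 as well. The 16 genes of a fibroblast, mural and endothelial list, none of them at 0 in all libraries, summed to 400.1 and 1081 CPM in WT footprints and 667 and 225 CPM in DKO footprints. In RNA they summed to 241 and 608 CPM in WT and 314 and 125 CPM in DKO. Of the 13 tested genes of this list, WT replicate 2 was the highest culture for 10 in footprints and 12 in RNA. Cspg4, the proteoglycan NG2, hardly differed in footprints, at 5.63, 5.96, 5.72 and 5.56 CPM. In RNA Cspg4 stood at 3.51, 4.65, 3.26 and 3.27 CPM. Fn1, the matrix protein fibronectin, stood at 17.01, 36.9, 17.6 and 11.8 CPM in footprints and at 13.2, 22.9, 12.2 and 11.04 CPM in RNA. Vim, Id1 and Id3 are also expressed by mesenchymal cells, and the part of such cells in their values was not tested. The 23 genes of a proliferation list summed to 775 and 985 CPM in WT footprints and to 699 and 703 CPM in DKO footprints, and WT replicate 2 was the highest for 22 of them in either assay. Of these 23 edgeR called 0, with an unadjusted p under 0.05 for 7 in footprints and 13 in RNA. Mcm6, a subunit of the replicative helicase, stood at 43.4, 56.4, 40.9 and 38.7 CPM in footprints and at 29.2, 38.5, 22.98 and 23.4 CPM in RNA. Top2a, a topoisomerase of dividing cells, stood at 105, 128, 93.9 and 81.8 CPM in footprints and at 106, 139, 77.7 and 92.6 CPM in RNA. The part of dividing cells in the values of the early genes was not tested. The 8 genes of a pluripotent cell list summed to 28.4 and 51.1 CPM in WT footprints and to 23.4 and 26.5 CPM in DKO footprints, and in RNA to 22.7, 36.9, 19.6 and 22.1 CPM. Pou5f1, the core factor of embryonic stem cells, stood at 0.0563, 3.92, 0 and 0.177 CPM in footprints and Zfp42 at 0.282, 2.76, 0.312 and 0.414 CPM, both chosen after their values were seen and highest in WT replicate 2. The part of such cells in the values of the early genes was not tested. By contrast the 20 neuronal genes summed to 11310 and 9381 CPM in WT and 10504 and 11142 CPM in DKO footprints, lowest in WT replicate 2.

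The early and late genes were then compared within each library. The ratio of the summed CPM of early to late genes was 1.98, 1.83, 1.56 and 1.604 in footprints. In RNA it was 1.96, 1.83, 1.84 and 1.73, and the groups overlapped. In footprints both DKO cultures lay below both WT cultures, and the mean log2 ratio was lower in DKO by a difference of -0.27, against -0.085 in RNA. No test was made of this ratio, since an exact two-sided permutation of 2 against 2 libraries cannot give a p below 0.333. Since Fabp7 weighs most in the sum, the ratio was also taken without it, which gave 0.684, 0.782, 0.601 and 0.576 in footprints and 0.863, 0.963, 0.833 and 0.835 in RNA. A ratio of geometric means, in which every gene weighs the same, was 0.484, 0.525, 0.410 and 0.402 in footprints and 0.681, 0.704, 0.617 and 0.595 in RNA, with both DKO cultures below both WT cultures in either assay. So weighted, the log2 difference was -0.31 in footprints and -0.19 in RNA.

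Translational efficiency, the change of footprints relative to the change of RNA, was not called different between genotypes for any gene of the 31. The count was 0 in the interaction test of edgeR (smallest adjusted p = 0.9997), where 0% of all genes were called, and 0 had an unadjusted p under 0.05, which 0.853% of all genes had. DESeq2 called 0 as well. The log2 change was positive for 9 of 11 late genes (median 0.13) and for 9 of 20 early genes (median -0.010), where 53.1% of all genes were positive. Among late genes the values with the smallest unadjusted p were 0.20 ± 0.15 for Glul, 0.22 ± 0.18 for Apoe, 0.27 ± 0.27 for Sparcl1 and 0.20 ± 0.22 for Clu, none beyond 2 standard errors. TMM scaling centres the typical gene, so that a shift shared by all genes would not be seen.

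The last comparison asked which of these mRNAs held more or fewer footprints than their RNA level, relative to the typical gene and over both genotypes. Counts were not divided by length, so the ratio also depends on how much of a transcript is coding. Per length (footprints per longest coding length) some called genes lay the other way. S100b, called lower, stood at 29.9 to 46.2 TPM in footprints and 19.8 to 25.8 TPM in RNA. Ptprz1, called higher, stood at 44.9 to 56.9 and 61.7 to 100.2 TPM. Hes5, called lower, stayed lower, at 41.0 to 51.9 and 111 to 127 TPM. Of the 31 genes 19 were called (edgeR, adjusted p under 0.05), 12 of them with more and 7 with fewer footprints, where 74.8% of all genes were called, 36.5% with more and 38.2% with fewer. Of the 4 secreted and metal-binding genes 3 were called with more footprints (Mt1 was not called), and the 5 Notch pathway genes all had fewer, of which Hes5 and Dll1 were called (with the culture as a block also Notch1 and Notch2). Scaled by TMM within each assay, all genes moved by -0.23 (median), 22 of the 31 were called, 10 with more and 12 with fewer footprints, and 18 of the 31 lay above the median of all genes under both scalings. The share of all genes called under this scaling is not given here, so its counts are not read as a result about the set.

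Clu stood highest, with a log2 ratio of footprints to RNA of 1.95 ± 0.11 (adjusted p = 1.01e-07, edgeR). Apoe followed at 1.49 ± 0.090, and both were higher in footprints than in RNA in each of the 4 cultures. Sox9, unlike Nfia and Nfib of the same role, was called higher, at 1.37 ± 0.094, with 92.5 to 114 CPM in footprints and 36.6 to 50.3 CPM in RNA. Vim (1.07 ± 0.21), Id1 (1.07 ± 0.30), Gja1 (0.97 ± 0.14), Fabp7 (0.89 ± 0.089), Sparcl1 (0.77 ± 0.13), Ptprz1 (0.73 ± 0.10) and Aldh1l1 (0.65 ± 0.16) were also called higher. Per length, however, Aldh1l1 was lower in footprints (19.5 to 22.7 TPM) than in RNA (21.2 to 34.4 TPM) in every culture. Fabp7 was near level per length, at 4075 to 5337 TPM in footprints and 4004 to 4827 TPM in RNA. In DKO replicate 1 its footprints were the lower (4075 against 4220 TPM). Slc1a3 (0.31 ± 0.12) and Glul (0.26 ± 0.076) were called higher, but under TMM within each assay their values were 0.084 and 0.034 and were not called.

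Fewer footprints were found for Hes5, at -1.34 ± 0.081 (adjusted p = 2.93e-08, edgeR), and for Nfia (-1.19 ± 0.19) and Nfib (-1.02 ± 0.11). Per length, however, Nfia was slightly higher in footprints (21.2 to 36.4 TPM) than in RNA (20.7 to 31.8 TPM) in every culture. Nfib was nearly level per length, at 21.2 to 29.4 TPM in footprints and 22.2 to 30.7 TPM in RNA. Id4 (-0.83 ± 0.12), Pax6 (-0.65 ± 0.17), S100b (-0.46 ± 0.095) and the ligand gene Dll1 (-0.27 ± 0.077) were called lower too. Within the Id family Id1 and Id4 thus lay on opposite sides in CPM. Per length, both were higher in footprints than in RNA in every culture. Id1 stood at 52.6 to 134 TPM in footprints and 27.6 to 61.5 TPM in RNA, and Id4 at 104 to 146 and 56.4 to 81.3 TPM. Id3 at 1.13 ± 0.59 was not called (adjusted p = 0.152, edgeR) but was called with the culture as a block (1.14). Late genes were called higher in 6 cases and lower in 1, and early genes in 6 cases each.

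Several of these calls were lost when libraries were left out. Slc1a3 lost its call when footprints of WT replicate 2 (0.23), of DKO replicate 1 (0.34) or those of DKO replicate 2 (0.30) were left out, or the RNA library of WT replicate 1 (0.23) or that of DKO replicate 1 (0.25), and at a mean count of at least 50 (0.28). Id1 lost it when footprints of DKO replicate 2 (1.07), the RNA library of WT replicate 1 (0.93) or that of DKO replicate 2 (0.9991) were left out. Without both libraries of DKO replicate 1, the calls of Pax6 (-0.55), Slc1a3 (0.26), Id1 (1.21) and Glul (0.23) were lost, and without those of DKO replicate 2, the calls of Dll1 (-0.19), Slc1a3 (0.38) and Id1 (0.98). Dll1 (-0.20) and Aldh1l1 (0.64) were not called without WT replicate 1, nor Aldh1l1 (0.71) without WT replicate 2. With the culture entered as a block, which takes the DKO replicate 2 libraries as 1 culture, 27 of the 31 were called, where 81.1% of all genes were. The 8 genes gained were Notch1 (-0.27), Notch2 (-0.30), Nes (0.69), Prom1 (-0.16), Hopx (-0.88), Id3 (1.14), Gfap (0.23) and Aqp4 (-0.18). Id3 was called also by DESeq2 (1.18), without both libraries of WT replicate 1 (1.19) and without those of WT replicate 2 (1.06).

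**Figure D4:**
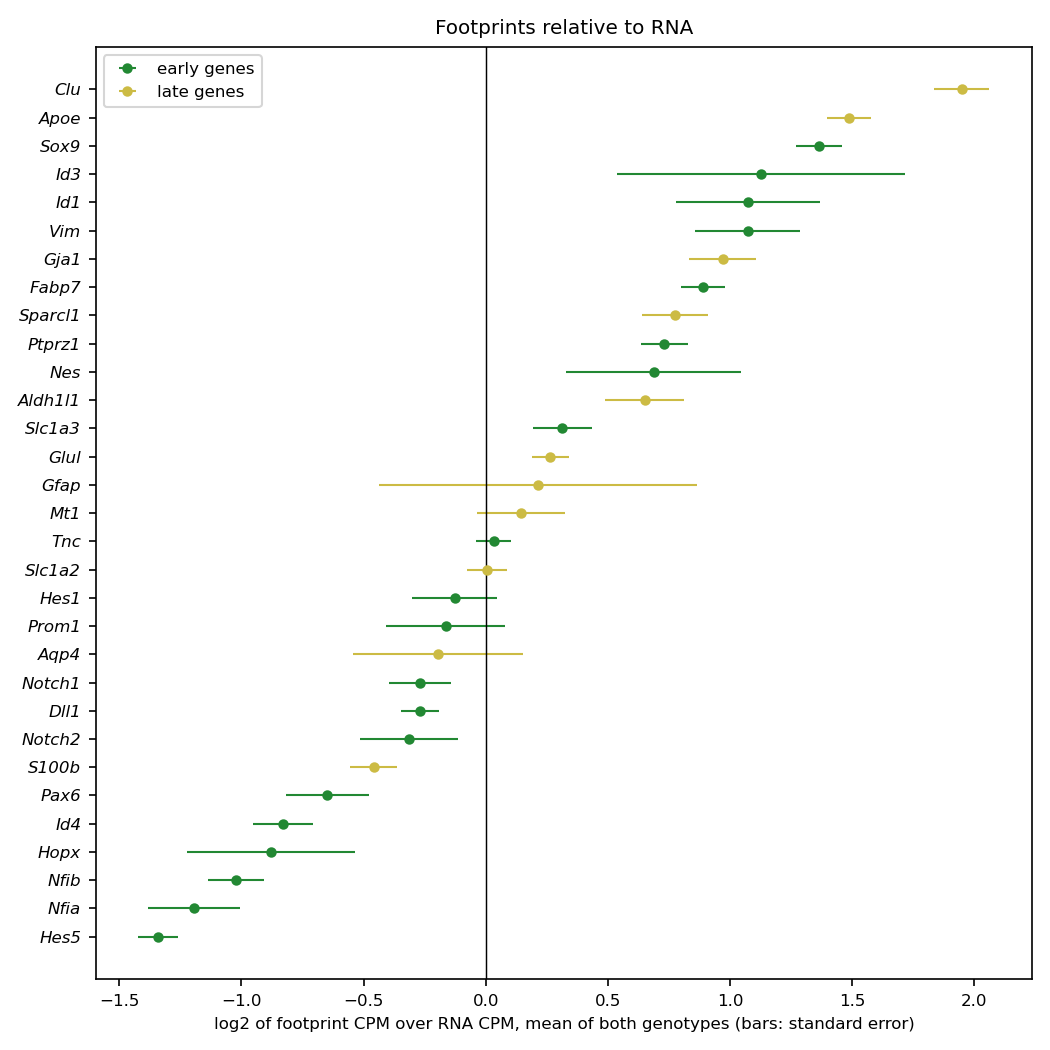
Log2 ratio of footprint CPM over RNA CPM, averaged over both genotypes, for the 31 tested genes in order, with standard errors as bars; early genes are green and late genes yellow. Clu at the top and Hes5 at the bottom span the range, and 9 of 11 late genes lie right of 0; Gfap, Slc1a2 and Mt1 among these lie left of 0 with TMM within each assay.

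The isoforms that received the counts differed between footprints and RNA. Of the 32 measured genes, 20 have an annotated isoform without a coding sequence. Such isoforms took a larger share of the gene's counts in every footprint library than in any RNA library for 9 genes and a smaller share for 4. Over all counts of a library, isoforms not annotated as protein-coding took 14.18% to 14.76% in footprints and 9.74% to 10.01% in RNA. A larger share in footprints is thus not particular to these genes, and how many of all genes show it is not given here. The isoform with the most counts was not the same in the 2 assays for 6 genes, namely Pax6, Prom1, Nfib, Id3, Slc1a2 and Apoe. For Pax6 and Id3 more than 50% of the footprint counts in every library lay on isoforms without a coding sequence.

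Id3 showed the largest gap. Id3-203, annotated as a retained intron with 738 nt, held 97.6% to 99.1% of all Id3 footprints but 4.66% to 9.52% of its RNA counts. The protein-coding Id3-201, with 1278 nt, took the rest nearly alone. Id3-203 contains 100% of the 360 coding bases of Id3-201 (stop codon included) and 378 bases outside them, where Id3-201 has 918. The first 300 of those shared coding bases are printed because footprints on them match both isoforms (plus strand, GRCm38, chr4:136143879-136144178, from GENCODE M21 transcripts). Capitals mark the start codon.
Id3-201 coding sequence: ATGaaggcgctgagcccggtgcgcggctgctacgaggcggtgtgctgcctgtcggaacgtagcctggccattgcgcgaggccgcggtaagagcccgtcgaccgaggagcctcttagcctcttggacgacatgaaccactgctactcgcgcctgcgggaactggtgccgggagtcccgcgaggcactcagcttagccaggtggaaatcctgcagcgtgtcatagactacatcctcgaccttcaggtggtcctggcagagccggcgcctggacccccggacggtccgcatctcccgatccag

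Hes5 split more evenly. Hes5-202, a processed transcript of 350 nt, took 47.1%, 52.6%, 39.4% and 50.2% of Hes5 footprints and 1.40% to 3.04% of its RNA. It shares 235 of the 504 coding bases of Hes5-201 (46.6%), and these stand in capitals in the first 300 coding bases printed here (plus strand, GRCm38, exons within chr4:154960996-154961471, from GENCODE M21 transcripts).
Hes5-201 coding sequence: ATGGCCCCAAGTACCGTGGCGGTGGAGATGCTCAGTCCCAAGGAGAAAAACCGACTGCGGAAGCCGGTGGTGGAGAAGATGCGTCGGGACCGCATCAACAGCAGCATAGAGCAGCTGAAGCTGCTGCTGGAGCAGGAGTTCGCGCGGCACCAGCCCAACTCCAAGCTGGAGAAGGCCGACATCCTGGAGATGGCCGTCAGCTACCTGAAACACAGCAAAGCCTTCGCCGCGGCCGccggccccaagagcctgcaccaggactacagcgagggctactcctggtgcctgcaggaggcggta
In the same way Vim-203 took 22.02% to 28.4% of Vim footprints and 4.29% to 7.05% of its RNA. Apoe-202 took 47.4% to 53.4% of Apoe footprints and 19.6% to 29.2% of its RNA, and it holds 63.3% of the coding bases of Apoe-206. For Slc1a2 both leading isoforms are protein-coding: Slc1a2-203, with 1957 nt, took 93.4% to 94.8% of footprint counts and 7.05% to 9.50% of RNA counts, and Slc1a2-202, with 11595 nt, took 89.6% to 92.4% of RNA counts. The CPM sums over a gene used above do not depend on this division, but the RNA values in TPM do. Those divide the counts of each isoform by its own length. Why the division differs between assays was not tested. With protein-coding isoforms alone, 17 of 30 tested genes were called for footprints against RNA, and Dll1 (-0.15) and Slc1a3 (0.21) were no longer called. The share of all genes called in this setting is not given here, so the count is not read as a result about the set.

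**Figure D5:**
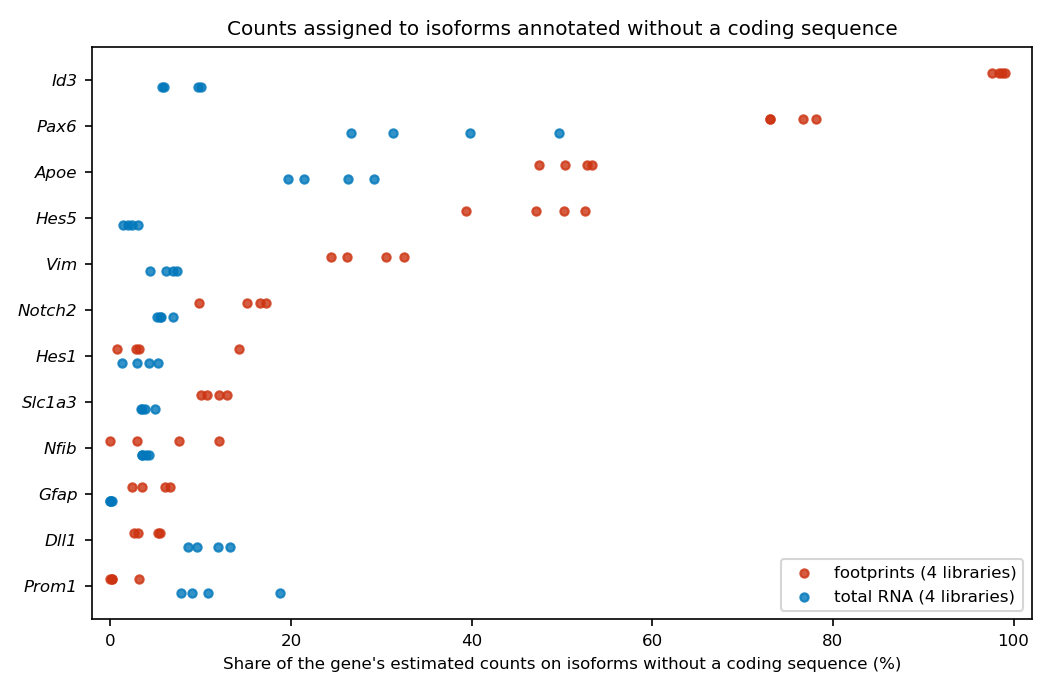
Share of a gene's estimated counts that fell on isoforms without a coding sequence, in percent, with 4 footprint libraries in red and 4 RNA libraries in blue for each gene. Id3 and Pax6 lie above 50% in all footprint libraries, and Dll1 and Prom1 have the larger shares in RNA.

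Other genes of the same pathways were taken from lists that do not contain the 34. In each of these lists edgeR called 0 genes in footprints and 0 in RNA. An unadjusted p under 0.05 in RNA was found for 4 Notch pathway genes, 0 genes of the BMP pathway, 0 of the JAK-STAT pathway, 3 other progenitor genes, 6 other astrocyte genes and 0 reactive astrocyte genes. In footprints the counts were 2, 1, 0, 3, 1 and 0. Of 31 tested Notch pathway genes, 17 had negative log2 fold changes in footprints and 20 in RNA (medians -0.048 and -0.099). Rfng, a glycosyltransferase acting on Notch, stood at 52.6, 49.5, 66.3 and 63.1 CPM in RNA (log2 fold change 0.34 ± 0.10), and Notch3, another Notch receptor, at 26.5, 31.6, 20.4 and 23.4 CPM. Of 18 BMP pathway genes 13 were negative in each assay (medians -0.087 and -0.089), with the receptor gene Bmpr1a at 130.4, 177, 128 and 122 CPM in RNA. The ligand gene Bmp6 stood at 2.88, 9.97, 2.60 and 2.34 CPM in RNA, high in WT replicate 2 alone. Of 7 tested genes of the gliogenic JAK-STAT pathway 6 were negative in each assay (medians -0.12 and -0.18), among them the cytokine receptor gene Lifr at 44.2, 52.2, 39.5 and 44.2 CPM in RNA.

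Of 19 other progenitor and radial glia genes, 16 were negative in footprints and 17 in RNA (medians -0.22 and -0.24). Sfrp1, a secreted Wnt modulator of radial glia, stood at 86.3, 96.4, 74.2 and 71.6 CPM in footprints and 71.2, 82.0, 54.6 and 56.4 CPM in RNA, the groups not overlapping (RNA log2 fold change -0.47 ± 0.10, adjusted p = 0.564, edgeR). Of 27 other astrocyte genes 21 and 22 were negative (medians -0.14 and -0.26), with Acsbg1, a fatty acid activating enzyme, at 40.5, 37.9, 23.8 and 32.2 CPM in RNA. The 8 tested genes of a reactive astrocyte list had 0 negative values in footprints and 4 in RNA (medians 0.17 and 0.0031). Among them Serpina3n, a protease inhibitor, stood at 25.7, 21.4, 23.8 and 27.9 CPM in footprints and at 8.95, 11.7, 7.70 and 8.71 CPM in RNA, where its log2 fold change was -0.35 ± 0.17. S100a10, an annexin partner, stood at 28.7, 35.1, 40.2 and 32.9 CPM in footprints and at 15.98, 18.9, 22.7 and 19.6 CPM in RNA.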

How the data were processed

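Per the labels, footprints (ARTseq kit, after cycloheximide) and total RNA were sequenced, 4 libraries each. The authors deposited 1 table of estimated counts, whole numbers per Ensembl transcript, and the submitters' processing notes name FastQC, Trimmomatic, Bowtie and kallisto. Their versions, strand setting, transcript set and genome build were not given in the sources used here. Of 60528 transcripts, 60444 matched GENCODE M21 and 84 did not, and counts were summed over each gene. Footprints were thus counted over whole transcripts, and a read shared by isoforms or near-identical genes was divided by an estimate.

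All 8 libraries entered 1 edgeR 4.0.16 quasi-likelihood model (R 4.3.3) with 4 groups, TMM scaling and filterByExpr at a minimum count of 10, which left out 5403 genes. DESeq2 1.42.0, RLE scaling, other filters, protein-coding isoforms, blocks and left-out libraries were alternatives. The fits were also run on simulated counts, with an outcome not given here. Those counts were drawn independently for each library, without shared cultures or a culture that stands apart. They therefore do not vouch for the fits in these data. The members and lists were chosen with earlier results of these data known. The rule for values in every library was, in each role, the gene with the most RNA per length, the one with the smallest p, and any gene called; the other genes were shown in full after their values were seen. From each other list at most the 2 tested genes with the smallest p in RNA were named. Replicate differences in footprints and RNA correlated at 0.658 in WT and 0.216 in DKO across genes. Promoter windows are RefSeq's (GRCm38.p6).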

Additional observations from a re-analysis of the deposited data

How the results depend on the processing

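No gene of the set was called for DKO against WT in footprints, RNA or efficiency under RLE scaling, TMM within each assay, either other filter, DESeq2, protein-coding isoforms or a block. Over the 12 settings that left out 1 library or 1 culture, the number of genes called ran from 0 to 7 in footprints, from 0 to 12 in RNA, stayed at 0 for efficiency and ran from 15 to 22 for footprints against RNA. Early medians ran from -0.52 to -0.097 in footprints and from -0.56 to -0.082 in RNA, and late medians from -0.30 to 0.038 and from -0.34 to -0.062. Over the 4 settings that apply to it, the log2 early to late ratio (DKO minus WT) ran from -0.33 to -0.22 and from -0.13 to -0.036. That ratio in RNA was -0.19 as a mean of log2 CPM.

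Signs changed as follows. Hes5 in RNA (DKO over WT) was 0.0062 with RLE scaling, 0.0057 with DESeq2 and 0.021 with protein-coding isoforms, and in footprints 0.024 with those. For footprints over RNA, TMM within each assay gave -0.20 for Tnc, -0.011 for Gfap, -0.23 for Slc1a2 and -0.083 for Mt1. Slc1a2 was -0.023 at a mean count of at least 50 and -0.00033 with protein-coding isoforms, which gave 0.0053 for Prom1. The cause was not tested. Signs also changed for these genes when libraries were left out. In footprints (DKO over WT) the values ran from -0.48 to 0.0032 for Pax6, from -0.070 to 0.12 for Dll1, from -0.55 to 0.11 for Hes1, from -0.21 to 0.025 for Hes5, from -0.70 to 0.042 for Vim, from -0.96 to 0.17 for Hopx, from -0.42 to 1.46 for Gfap, from -0.064 to 0.16 for Aldh1l1, from -0.0012 to 0.27 for Slc1a2, from -0.39 to 0.0060 for Gja1, from -0.33 to 0.075 for Sparcl1, from -0.063 to 0.12 for Apoe, from -0.49 to 0.15 for Mt1. In RNA (DKO over WT) they ran from -0.51 to 0.14 for Pax6, from -0.20 to 0.033 for Dll1, from -0.084 to 0.10 for Hes5, from -0.61 to 0.10 for Vim, from -0.81 to 0.027 for Hopx, from -0.43 to 0.00032 for Sox9, from -0.47 to 0.049 for Id4, from -0.45 to 1.38 for Gfap, from -0.57 to 0.20 for Aldh1l1, from -0.088 to 0.13 for Slc1a2, from -1.07 to 0.048 for Aqp4, from -0.56 to 0.028 for Gja1, from -0.25 to 0.23 for Clu, from -0.34 to 0.15 for Mt1. For translational efficiency they ran from -0.013 to 0.49 for Sparcl1, from -0.082 to 0.39 for Clu. For footprints over RNA they ran from -0.30 to 0.027 for Hes1, from -0.29 to 0.031 for Prom1, from -0.010 to 0.083 for Tnc, from -0.39 to 0.82 for Gfap, from -0.057 to 0.076 for Slc1a2, from -0.42 to 0.15 for Aqp4, from -0.070 to 0.33 for Mt1.

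With the replicate number as a block within each assay, and with crossed numbers (chosen after seeing the data), 0 genes were called in footprints and 0 in RNA. Replicate differences correlated at -0.14 between WT and DKO footprints and -0.10 in RNA. Whether the replicate numbers pair WT with DKO cultures was not tested. With the culture as a block 0 were called for efficiency and 27 for footprints against RNA. The 2 libraries a group, with 4 residual degrees of freedom, limit what these tests can call.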

Other observations

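Oligodendrocyte lineage genes outside the set lay lower in DKO. All 13 tested genes of that list had negative log2 fold changes in footprints and 12 in RNA (medians -0.29 and -0.42). With 1 library or 1 culture left out, the medians ran from -0.45 to -0.26 in footprints and from -0.51 to -0.31 in RNA. Of the 13, edgeR called 0 in either assay and gave 7 an unadjusted p under 0.05 in each. Ugt8a, which makes the myelin lipid galactosylceramide, stood at 26.8, 29.2, 16.3 and 20.2 CPM in footprints (WT replicates 1 and 2, DKO replicates 1 and 2) and at 39.8, 41.6, 26.03 and 28.2 CPM in RNA. Both DKO libraries lay below both WT libraries for Ugt8a in either assay. Among 18 tested neuronal genes 6 were negative in footprints and 11 in RNA (medians 0.057 and -0.023). Nefl, a neurofilament subunit, stood at 769, 650.5, 848 and 909 CPM in RNA, higher in both DKO libraries. Gad2, a GABAergic neuron gene, went the other way, at 103, 105, 81.5 and 94.7 CPM in RNA, lower in both DKO libraries. In footprints Gad2 stood at 167, 138, 132 and 142 CPM, and the groups overlapped. The single tested microglia gene, Tmem119, stood at 0.82 to 6.47 CPM, and the single tested pluripotent cell gene, Esrrb, at 13.5 to 27.9 CPM, highest in WT replicate 2 in both assays.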
